A study of Rattus norvegicus with 9 samples.

Results

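The genes described here encode 4 lymphocyte-attracting chemokines, Cxcl9, Cxcl10, Cxcl11 and Ccl5. They were chosen by name with their values known, since Cxcl10 and Ccl5 had been seen to be highest in the libraries headed Model. Of the 5760 genes listed in either of the 2 gene tables, 4 are therefore described, and all 4 are listed in both tables. Their levels across the groups are what chose them, so these levels are given as a description with no test.

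Cardiac poly-A RNA of 9 male Sprague Dawley rats was sequenced, 3 rats from each of 3 groups, to examine how calycosin (Cal), a plant isoflavone, affected the heart in heart failure (HF). The control rats had sham surgery, whereas HF was induced in the model and Cal rats by tying off the left anterior descending (LAD) coronary artery. From the day after surgery, the Cal rats received 80 mg/kg of Cal per day by mouth for 28 days, and the sham and model rats received distilled water. The rats were drawn at random from larger groups, and a fosinopril group of the study is not analysed here. One table lists 4288 genes with values of the libraries headed Cal and Model, and the other lists 2458 genes with values of the libraries headed Cal and Con. Con stands for the group labelled Control.

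The headings of the tables conflict, and every direction below depends on them. In 4288 of 4288 genes of the first table, the column of Cal means averaged the libraries headed Model, and the column of Model means averaged those headed Cal. In the second table, the column of Model means averaged the libraries headed Cal in 2458 of 2458 genes. In 986 of 986 shared genes, the Cal libraries of both tables had equal reads. Libraries are named here by their own column heading. The second table is also named as a comparison of Model with Con, although its sample columns are headed Cal and Con. By the mean columns, the libraries headed Model would be the Cal group and the libraries headed Cal the model group. Each statement that places Model above Cal, or Cal above Model, would then turn around. Each statement on Cal and Con would compare the model group with sham.

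Both tables list genes that the authors had called changed, so a listed gene was likely to differ. Reads on the listed genes ranged from 2860826 to 4659882 per library, and the full depth is unknown. No pair of replicates was a duplicate, as the chi-square of their counts was 10.7 to 78.3 per degree of freedom. Transcripts of the cardiac muscle were abundant, with Myh6, the alpha myosin heavy chain of heart muscle, between 247859 and 336025 normalized counts in the 6 libraries of the Cal and Con table. In bulk tissue, fewer cells of a type and less RNA per cell cannot be told apart. The identifiers are of mouse Ensembl genes although the samples are from rats, so values rest on how rat reads were assigned to them.

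Chemokines are small secreted proteins that direct the movement of leukocytes. CXCL9, CXCL10 and CXCL11 are induced by interferons, above all by interferon gamma, and attract activated T cells and natural killer (NK) cells that carry the receptor CXCR3. CXCL10 also responds strongly to type I interferon and NF-kB, whereas CXCL9 is the most dependent on interferon gamma. CCL5, also called RANTES, is made by T cells, platelets, endothelial cells and macrophages and binds several receptors of the CC family. In the injured heart these ligands are known to accompany the entry of lymphocytes and monocytes.

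In the deposited mouse annotation, whose build is not given in the sources used here, the 3 CXC genes lie side by side on the minus strand of chromosome 5. Cxcl9 (ENSMUSG00000029417) spans chr5:92321347-92328079, Cxcl10 (ENSMUSG00000034855) chr5:92346638-92348889 and Cxcl11 (ENSMUSG00000060183) chr5:92359544-92365485. Ccl5 (ENSMUSG00000035042) is on the minus strand at chr11:83525778-83530518. Cxcl11 is annotated there as a polymorphic pseudogene, whereas the other members are annotated as protein coding. The gene Art3 spans chr5:92331827-92414628 on the opposite strand and overlaps Cxcl10 and Cxcl11. Whether reads were counted by strand is not given in the sources used here, so some reads counted for these members could come from Art3.

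The promoters of the 3 neighbouring CXC genes are shown because these genes were highest in the same libraries. Each runs from 250 bases before to 50 bases after the gene's start on the plus strand of the rat assembly GRCr8, as given by RefSeq, at chr14:16006916-16007215 for Cxcl9, chr14:15988816-15989115 for Cxcl10 and chr14:15973478-15973777 for Cxcl11. Capitals mark matches, searched on both strands, to GAAANNGAA (like the interferon-stimulated response element), TTCNNNGAA (like the gamma-activated site) and GGANNTTCC (like the NF-kB site).
Cxcl9: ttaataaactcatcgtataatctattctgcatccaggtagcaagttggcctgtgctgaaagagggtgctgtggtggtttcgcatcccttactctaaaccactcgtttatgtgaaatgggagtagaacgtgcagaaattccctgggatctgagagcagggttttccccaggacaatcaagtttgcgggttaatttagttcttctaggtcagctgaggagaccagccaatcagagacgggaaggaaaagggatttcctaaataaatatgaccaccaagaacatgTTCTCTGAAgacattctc
Cxcl10: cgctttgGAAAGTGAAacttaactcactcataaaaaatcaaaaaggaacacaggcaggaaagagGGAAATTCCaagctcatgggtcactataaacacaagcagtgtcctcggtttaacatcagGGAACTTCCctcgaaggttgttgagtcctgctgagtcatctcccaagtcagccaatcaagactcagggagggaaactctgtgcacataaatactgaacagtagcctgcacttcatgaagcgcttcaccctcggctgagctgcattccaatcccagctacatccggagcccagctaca
Cxcl11: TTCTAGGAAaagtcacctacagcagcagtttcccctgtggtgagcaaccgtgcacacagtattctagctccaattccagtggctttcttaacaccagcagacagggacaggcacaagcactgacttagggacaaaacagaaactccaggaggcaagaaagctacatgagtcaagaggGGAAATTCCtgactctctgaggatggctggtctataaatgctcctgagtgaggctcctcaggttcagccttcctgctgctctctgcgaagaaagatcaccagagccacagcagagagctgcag
In Cxcl10, the match to the interferon-stimulated element, GAAAGTGAA, lay 243 to 235 bases before the start. Its pair of NF-kB-like matches, GGAAATTCC and GGAACTTCC, lay 186 to 178 and 127 to 119 bases before the start. In Cxcl11, an NF-kB-like match, GGAAATTCC, lay 73 to 65 bases before the start, and a match to the gamma-activated site, TTCTAGGAA, lay 250 to 242 bases before it. The only match to these patterns in Cxcl9 was TTCTCTGAA, 33 to 41 bases after the start, a match to the gamma-activated site. Other forms of the NF-kB site or of the interferon elements were not searched. No match overlapped another. Among 33469 rat promoters of the same length, 9.71% held the first motif, 8.87% the second and 4.09% the third. These matches describe the letters of the windows and show no binding.

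The 4 chemokines were highest in the libraries headed Model, lower in those headed Cal and lowest in those headed Con. Values are normalized counts, that is, a gene's reads divided by 1 size factor per library.

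Cxcl9 stood at 27037, 34380 and 15221 in Model 1 to 3 and at 529, 443 and 2050 in Cal 1 to 3. The group means were 25546 ± 9666 (SD, n = 3) in Model and 1008 ± 904 (SD, n = 3) in Cal, a 25.4-fold difference of means, or 52.5-fold without Cal 3. Every Model library lay above every Cal library, and the lowest Model value was 7.42 times the highest Cal value. In the Cal and Con table, where the same Cal libraries read 592, 497 and 2286, Cxcl9 was at 146, 379 and 221 in Con 1 to 3. These groups did not overlap either, but the lowest Cal value was only 1.31 times the highest Con value. The means, 1125 ± 1007 (SD, n = 3) in Cal and 249 ± 119 (SD, n = 3) in Con, differed 4.52-fold and by less than 1 SD of the Cal libraries. Without Cal 3, the difference was 2.19-fold. Cxcl9 was the only one of the 4 genes with over 100 normalized counts in every sham library.

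Cxcl10, which was first described as an interferon-inducible protein, had 13879, 24438 and 15706 normalized counts in Model 1 to 3 and 1583, 1638 and 6403 in Cal 1 to 3. The means were 18008 ± 5643 (SD, n = 3) and 3208 ± 2767 (SD, n = 3), a 5.61-fold difference, or 11.2-fold without Cal 3. Thus the step between Cal and Model was smallest for Cxcl10, and Cal 3 came within 2.17-fold of the lowest Model library. The step down to Con was wider than for Cxcl9 and Ccl5, because Con 1 to 3 held 10.2, 34.4 and 5.06 against 1770, 1836 and 7139 in Cal on the scale of the Cal and Con table. There, Cal was at 3582 ± 3081 (SD, n = 3) and Con at 16.6 ± 15.6 (SD, n = 3), 216-fold apart, or 109-fold without Cal 3. Even the lowest Cal value was 51.5 times the highest Con value.

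Cxcl11, whose product binds CXCR3 most tightly of the 3 CXC ligands, was at 987, 2741 and 1222 in Model 1 to 3. The Cal libraries stood at 6.46, 17.8 and 90.5, the widest relative spread of the 4 genes in that group. The means were 1650 ± 952 (SD, n = 3) in Model and 38.3 ± 45.6 (SD, n = 3) in Cal, 43.1-fold apart, and 136-fold apart without Cal 3. In the Con libraries, Cxcl11 had 1 read in Con 2 and 0 reads in Con 1 and Con 3, where a count of 0 allows up to 3 reads. Cal 1 to 3 held 7, 19 and 106 reads, 132 together, a ratio of 137 to Con with a 95% exact interval of 24.1 to 5446 for counting error only. The sham level was therefore at the limit of what this depth could detect.

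Ccl5 gave the tightest Model and Cal groups relative to their means. It was at 2232, 3055 and 2629 in Model 1 to 3 and at 72.9, 124.8 and 129.8 in Cal 1 to 3. The means were 2639 ± 411 (SD, n = 3) and 109 ± 31.5 (SD, n = 3), 24.2-fold apart, and the lowest Model library was 17.2 times the highest Cal library. The Con libraries had 14.9, 12.8 and 5.06, against 81.5, 140 and 145 in Cal on the scale of that table. Those means were 10.9 ± 5.18 (SD, n = 3) and 122 ± 35.2 (SD, n = 3), 11.2-fold apart. Ccl5 was alone among the members in that Cal 3 did not stand out from Cal 2.

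**Figure D1:**
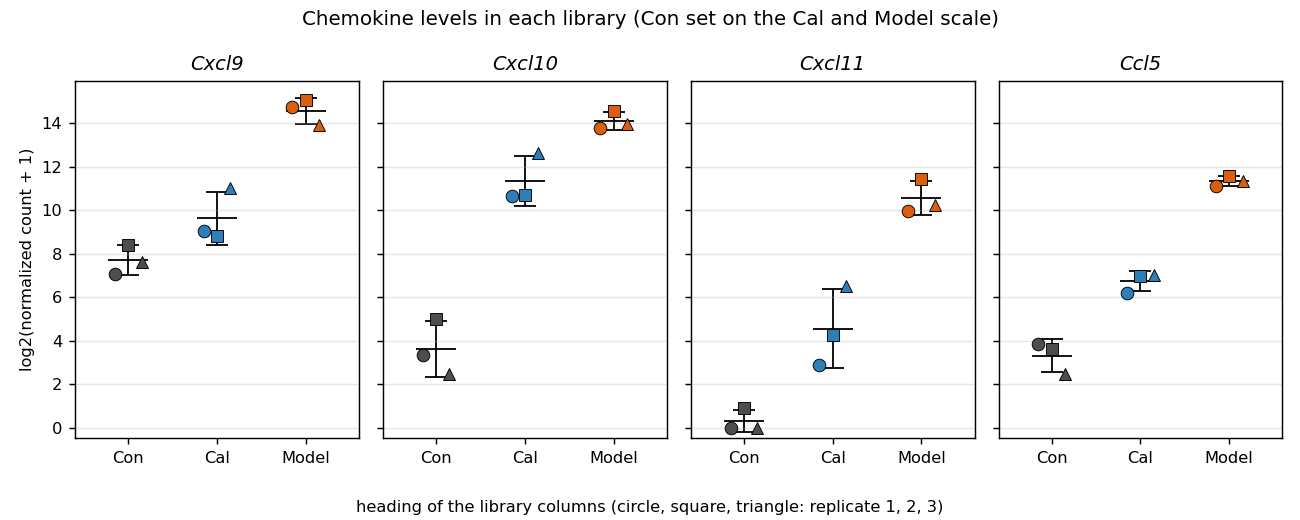
Levels of Cxcl9, Cxcl10, Cxcl11 and Ccl5 in each of the 9 libraries, as log2 of the normalized count plus 1, with Con multiplied onto the Cal and Model scale. Long bars are the means of the log2 values, short bars 1 SD to either side (n = 3), and the shapes give the replicate number. All Model libraries lie above all Cal libraries, and these above all Con libraries, with the narrowest gap for Cxcl9 between Con and Cal.

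On the log2 scale with 1 added, Cal minus Model was -4.95 (SE 0.58) for Cxcl9, -2.77 (SE 0.53) for Cxcl10, -5.99 (SE 0.85) for Cxcl11 and -4.62 (SE 0.25) for Ccl5. Cal minus Con, which uses the same Cal libraries, was 1.92 (SE 0.56) for Cxcl9, 7.73 (SE 0.70) for Cxcl10, 4.37 (SE 0.89) for Cxcl11 and 3.44 (SE 0.41) for Ccl5. Groups did not overlap for 4 of the 4 genes in either comparison, and this was so for 98.2% of the 4288 genes listed for Cal and Model and for 97.4% of the 2458 listed for Cal and Con. Nothing is read from the members' count, since the tables hold preselected genes and the members were chosen on these values. The order itself, with every Con library below every Cal library and these below every Model library, held for 279 of the 986 genes in both tables (28.3%).

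Con and Model share no table, so Con was set on the Cal and Model scale through the Cal libraries, with a factor of 0.894. On that scale, Con was at 222 ± 106 (SD, n = 3) for Cxcl9, 14.8 ± 14.0 (SD, n = 3) for Cxcl10 and 9.76 ± 4.63 (SD, n = 3) for Ccl5. The Model means were 115 times the Con mean for Cxcl9, 1216 times for Cxcl10 and 270 times for Ccl5. Cxcl11 had 4437 reads in the 3 Model libraries and 1 read in the 3 Con libraries.

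The mixture of the 4 transcripts differed between the groups. Per kilobase of the deposited gene length, Cxcl9 exceeded Cxcl10 in the sham hearts, with ratios of 10.7, 8.23 and 32.6 in Con 1 to 3. These ratios rest on only 11, 35 and 5 reads of Cxcl10, so their size is imprecise. The order was turned in the libraries headed Cal, in which Cxcl10 led and the ratio of Cxcl9 to Cxcl10 was 0.250, 0.202 and 0.239. In the libraries headed Model, both stood at similar levels per kilobase, with ratios of 1.45, 1.05 and 0.724. The 3 ranges did not overlap, and the ratio stayed narrow in Cal although Cal 3 held far more of both transcripts.

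As a share of the summed level per kilobase of the 4 genes, Cxcl10 made up 73.5%, 72.1% and 77.2% in Cal 1 to 3. It made up 34.8%, 41.5% and 46.2% in Model 1 to 3 and 6.64%, 9.88% and 2.79% in Con 1 to 3. Ccl5 held 13.1%, 12.2% and 18.2% in Model and 7.94%, 12.9% and 3.67% in Cal, so these groups overlapped. Cxcl11 stayed the smallest part everywhere, with at most 2.76% in Model 2. The sum itself was 61.3, 138 and 72.2 normalized counts per kilobase in Con, 956, 1009 and 3682 in Cal and 17713, 26156 and 15082 in Model. Gene lengths are those of the mouse annotation, and the rat transcripts may differ in length.

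**Figure D2:**
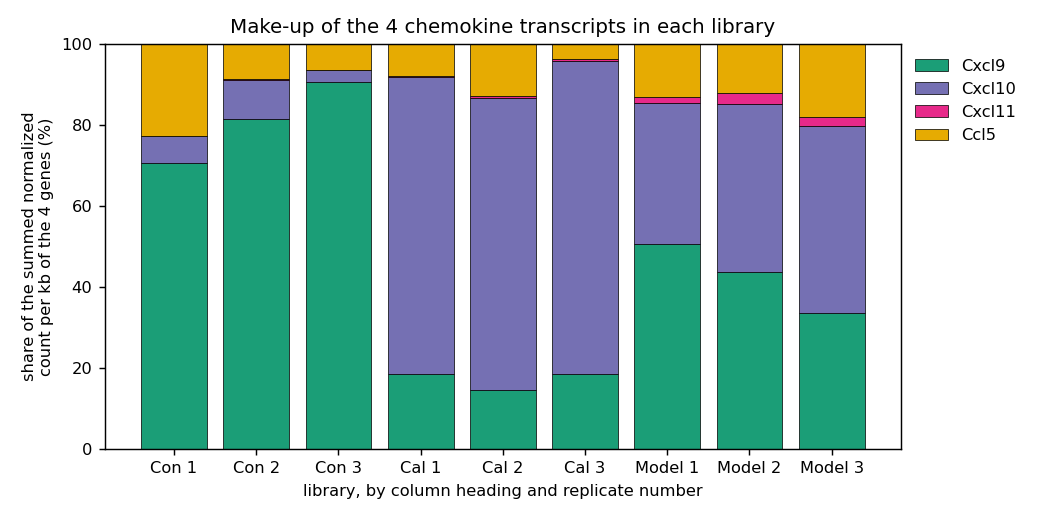
Share of each gene in the summed normalized count per kilobase of Cxcl9, Cxcl10, Cxcl11 and Ccl5 (y axis, percent) in each library (x axis). Cxcl9 fills 70.7% to 90.7% of the bars in Con, whereas Cxcl10 fills 72.1% to 77.2% in Cal, and both share most of the bars in Model.

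The rats of the group headed Cal did not carry these chemokines evenly. In Cal 3, Cxcl11 was 5.08 times, Cxcl10 3.91 times and Cxcl9 3.87 times the higher of Cal 1 and Cal 2, whereas Ccl5 was 1.04 times it. Among the 3946 genes with a mean of at least 10 in Cal, 77 (1.95%) exceeded 2 times in Cal 3, and Cxcl11, Cxcl10 and Cxcl9 ranked 2, 9 and 10. The 3 CXC ligands were thus among the genes by which this library differed most, and Ccl5, at rank 1221, was not. Among the genes known to act in interferon signalling, Cal 3 was 2.17 times the higher of the other two for Ifnb1, 2.13 times for Socs1, 1.87 times for Irf7 and 1.80 times for Stat2. The limits of 1.5 and 2 times used here were chosen after the values had been seen. In the libraries headed Model, Model 2 was highest for all 4 genes, at 1.27 times the next library for Cxcl9, 1.56 times for Cxcl10, 2.24 times for Cxcl11 and 1.16 times for Ccl5. Of 4005 genes with a mean of at least 10 in Model, 401 exceeded 1.5 times and 144 (3.60%) exceeded 2 times in Model 2.

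**Figure D3:**
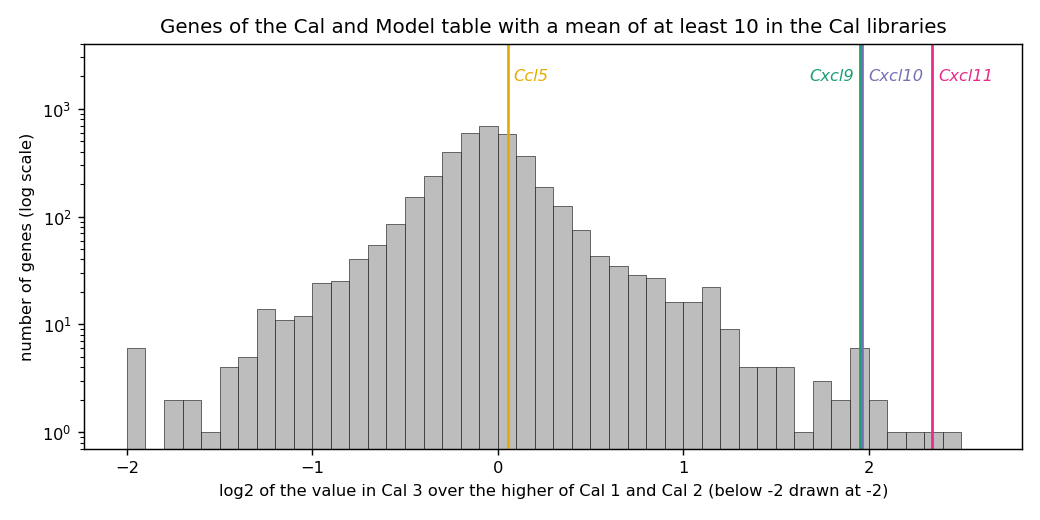
Number of genes (y axis, log scale) by the log2 ratio of the value in Cal 3 to the higher of Cal 1 and Cal 2 (x axis), for the 3946 listed genes whose mean in Cal was at least 10. Coloured lines mark the 4 chemokines, with Cxcl9, Cxcl10 and Cxcl11 at the right end (3.87, 3.91 and 5.08 times) and Ccl5 near 0 (1.04 times).

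Art3, which codes for an ADP-ribosyltransferase-like protein and overlaps Cxcl10 and Cxcl11, was compared with them because its reads could enter theirs. It was at 5560, 7522 and 7084 in Model and at 3276, 3640 and 3821 in Cal, a log2 difference of -0.90 (SE 0.16, limma adjusted p = 0.00207). In Cal 3, Art3 was 1.05 times the higher of the other Cal libraries. In Con, Art3 had 3027, 2570 and 3715 normalized counts, while Cxcl10 had at most 34.4. Whether reads of Art3 were counted for Cxcl10 or Cxcl11 was not tested.

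The genes whose profile over the 9 libraries was most like that of each member were taken by the root mean square (RMS) difference of centred log2 values, among 984 genes in both tables with a group mean of at least 10. For Ccl5, these were Calhm6 (RMS 0.508), Serpina3i (0.555), Lipg (0.683), Serpina3h (0.746) and Mt2 (0.752), against a median of 3.30 over all genes. Lipg codes for endothelial lipase, Mt2 for a metallothionein and the Serpina3 genes for serine protease inhibitors. For Cxcl9, they were Olfr56 (RMS 0.613), Gm5970 (0.685), Serpina3g (0.711), Serpina3i (0.762) and Gbp5 (0.795), an interferon-inducible guanylate-binding protein, with a median of 2.97. For Cxcl10, they were Acod1 (RMS 0.984), Clec4e (0.999), Cxcl5 (1.01), Csf3 (1.04) and Ptx3 (1.17), with a median of 4.50. Acod1 makes itaconate in activated macrophages, Clec4e is a receptor of myeloid cells, and Csf3 is the granulocyte growth factor. For Cxcl11, they were Serpina3f (RMS 0.864), Lcn2 (1.17), Ccl5 (1.22), Calhm6 (1.29) and Csf3 (1.30), with a median of 4.27. The Serpina3 genes and Gm5970 belong to multigene families whose reads may be split between copies.

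Among the members themselves, Cxcl9 and Ccl5 were closest, with an RMS of 0.995. The profiles of Cxcl9 and Cxcl10 were furthest apart, with an RMS of 2.44. Of the genes ordered by likeness, Cxcl10 was at rank 276 from Cxcl9, and Cxcl9 at rank 37 from Cxcl10.

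The genes around the chemokines were tested with limma over all listed genes of each table, with a call needing an adjusted p under 0.05 and a log2 difference beyond 1. Because the authors had already called the listed genes changed, passing the adjusted p was nearly fixed in advance. With no limit on the log2 difference, 4272 genes passed for Cal and Model and 2454 for Cal and Con. A call therefore rests mostly on the log2 limit, and the adjusted p-values below are no independent evidence. In the Cal and Model table, 60.1% of the 4288 genes were called, 31.6% lower and 28.4% higher in the libraries headed Cal (1356 and 1219 genes). Under median-ratio scaling, the split was 1047 lower and 1646 higher, and under quantile normalization it was 1180 and 1407. In the Cal and Con table, 29.0% of the 2458 genes were called, 10.9% lower and 18.0% higher in Cal (269 and 443 genes). There, median-ratio scaling gave 447 lower and 342 higher, and quantile normalization 390 and 346. The median log2 difference of all listed genes was -0.52 for Cal minus Model (-0.10 after quantile normalization) and 0.37 for Cal minus Con (-0.04), and the lists below are set beside these medians. The lists were written with earlier results known, and no list was tested as a whole.

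Decoy receptors and the processing enzyme of these ligands differed in direction between Cal (the model group by the mean columns) and Model. Cxcr3, Ccr1 and Ccr3 were not listed in either table and are not analysed here. Ackr1, a decoy receptor of endothelium that binds Ccl5, was at 97.2, 149 and 179 in Model and at 7.38, 11.3 and 12.8 in Cal (log2 -3.62, SE 0.33, limma adjusted p = 0.00023), and Ackr2, a scavenger of CC chemokines, was also lower in Cal (log2 -1.52, SE 0.39, adjusted p = 0.00778). Dpp4, the peptidase that trims Cxcl9, Cxcl10, Cxcl11 and Ccl5, was higher in Cal (log2 1.02, SE 0.23, adjusted p = 0.00471). The Dpp4 call was lost without Model 2 (log2 0.86) or without Cal 3 (log2 0.96). For Cal and Con, Ackr2 was lower in Cal (log2 -1.53, SE 0.36, adjusted p = 0.00519), while Dpp4 was not called (log2 -0.55). Thus Ackr2 stood lowest in the libraries headed Cal, unlike its ligand Ccl5.

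The inputs of these genes comprised 28 genes of interferon and NF-kB signalling. For Cal and Model, 17 were listed, and the libraries headed Cal were called lower for 13 and higher for 2. The median log2 difference of the 17 was -1.65. Of the 13, Irf9 lost its call without Cal 2 (log2 -0.905) and Ifnar2 without Cal 1 (log2 -0.95). Irf7, which amplifies type I interferon, was at 7376, 13982 and 10495 in Model and at 1562, 343 and 2916 in Cal (log2 -3.14, SE 0.71, limma adjusted p = 0.00474). These groups did not overlap. Cal 3 was the highest Cal library for Irf7 and the CXC ligands, but also for 39.9% of the 3946 genes with a mean of at least 10 in Cal. Unlike Cxcl9 and Cxcl10, Irf7 differed widely between Cal 1 and Cal 2. Stat2 (log2 -2.29, SE 0.35, adjusted p = 0.00109), Irf8 (log2 -1.98, SE 0.21, adjusted p = 0.000335) and Socs1, an inhibitor of JAK signalling (log2 -2.44, SE 0.43, adjusted p = 0.00198), were also lower in Cal. So were Tbk1 (log2 -1.71) and Ikbke (log2 -2.94), kinases upstream of the interferon genes, and the TNF receptor Tnfrsf1a (log2 -1.79).

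The 2 inputs that were higher in Cal were cytokines. Tnf was at 757, 416 and 424 in Cal and at 163, 132 and 87.2 in Model (log2 2.04, SE 0.31, limma adjusted p = 0.00115), opposite in direction to its receptor gene and to the chemokines. Ifnb1, the gene of interferon beta, was at 24.0, 0.939 and 52.1 in Cal and had 1 read in all Model libraries together (log2 3.39, SE 1.16, adjusted p = 0.0212). The groups of Ifnb1 overlapped, and its call was lost in 4 of the fits that left out 1 library, without Model 1, Model 3, Cal 1 or Cal 3 (limma adjusted p = 0.0638 to 0.0726). Ifng was not listed and is not analysed here.

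For Cal and Con, 13 inputs were listed, and the libraries headed Cal were called higher for 11 and lower for 0. The median log2 difference of the 13 was 1.999. The other two, Jak2 (log2 0.64, limma adjusted p = 0.0057) and Tnfrsf1b (log2 0.71, adjusted p = 0.0088), missed the limit on the log2 difference. Irf1, an interferon- and NF-kB-induced factor that acts on the promoters of Cxcl9, Cxcl10 and Ccl5, was at 6408, 4776 and 7748 in Cal and at 372, 635 and 402 in Con (log2 3.76, SE 0.23, adjusted p = 5.58e-06). The NF-kB subunit genes Rela (log2 1.999, SE 0.11, adjusted p = 3.53e-06), Relb (log2 2.20) and Nfkb2 (log2 1.98), and the inhibitor gene Nfkbia (log2 2.61, SE 0.14, adjusted p = 2.75e-06), were higher in Cal. Tnf was higher by a log2 difference of 5.79 (SE 0.44, adjusted p = 1.93e-05). Socs1 and Irf8, which were lower in Cal than in Model, were higher in Cal than in Con (log2 3.16 and 1.52), the order shown by the 4 chemokines.

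The other chemokine ligands differed in direction among themselves in the Cal and Model table. Of 13 listed, 6 were called lower in Cal and 5 were called higher, and their median log2 difference was -0.87. On the side of the members were Cxcl13, which attracts B cells (log2 -4.17), Cxcl5, a ligand for neutrophils (log2 -3.30, SE 0.29, limma adjusted p = 0.000201), Ccl8 (log2 -2.06), Ccl11, the eosinophil ligand eotaxin (log2 -1.36), and Cxcl14 (log2 -1.14). Ccl19, which guides T cells and dendritic cells to lymph nodes, was at 4.32, 90.2 and 0.959 in Model and had 0 reads in Cal, so that 1 library carried most of its 79 reads. Its call was lost without Model 1, Cal 1, Cal 2 or Cal 3 (log2 -3.74 to -3.30), that of Ccl11 without Model 2 (log2 -0.955) and that of Cxcl14 without Cal 2 (log2 -0.88). On the opposite side were Cxcl12, the ligand of CXCR4 (log2 2.70, SE 0.19, adjusted p = 0.000123), Ccl6 (log2 2.43), Ccl12 (log2 1.67), Cxcl2 (log2 1.59) and Cxcl1 (log2 1.46). Cxcl1 and Cxcl2, ligands for neutrophils, were thus highest in the libraries headed Cal, where the lymphocyte-attracting ligands were intermediate. For Cal and Con, 14 of the 15 listed ligands were called higher and 0 lower in Cal, with a median log2 difference of 5.08. The largest of these differences were those of Cxcl2 (log2 9.67) and Cxcl1 (log2 8.89), and the smallest was that of Ccl9 (log2 1.04), whose call was lost without Cal 2, Con 1 or Con 3 (log2 0.84 to 0.97). Cxcl12, with a log2 difference of -0.71, was not called, but it was called lower after quantile normalization (log2 -1.16, limma adjusted p = 2.67e-05). Reads of Cxcl1, Cxcl2 and Cxcl3, of Ccl2, Ccl7 and Ccl12, and of Ccl6 and Ccl9 may be shared between near copies.

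**Figure D4:**
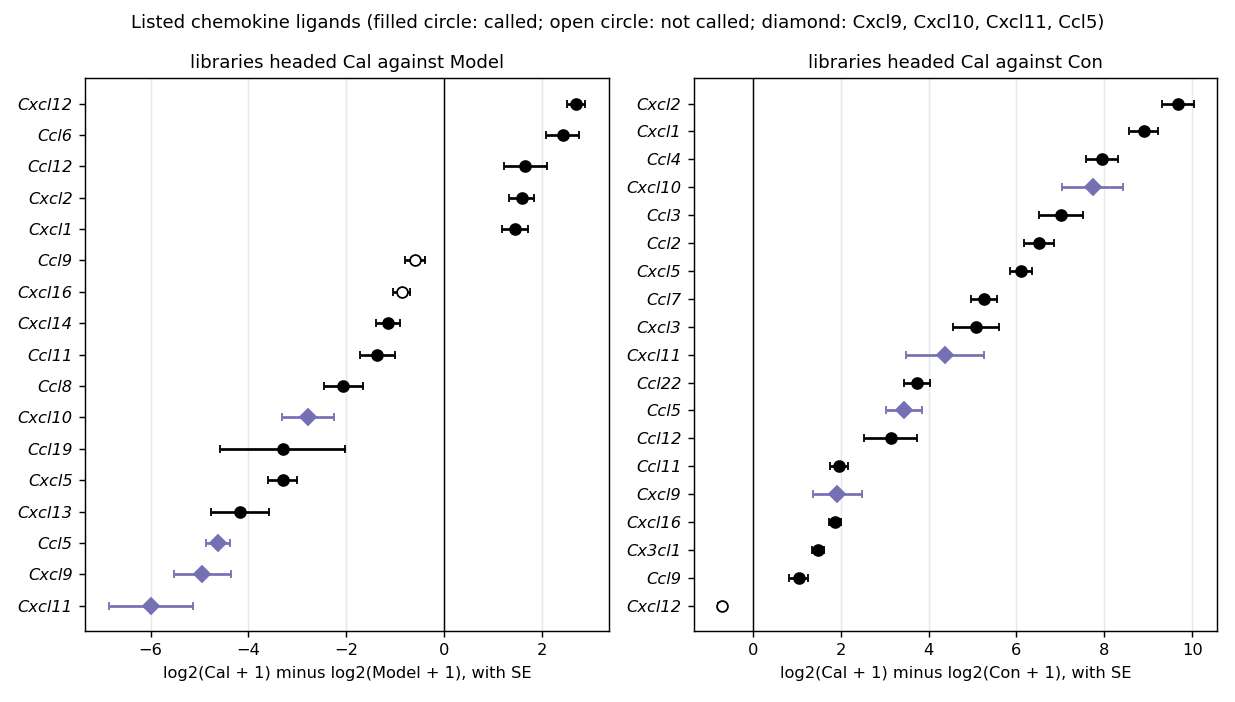
Log2 differences with SE (x axis) of every listed chemokine ligand, Cal minus Model (left) and Cal minus Con (right), with the 4 members as diamonds and other ligands as filled (called) or open (not called) circles. Cxcl11, Cxcl9 and Ccl5 hold the lowest places on the left, and on the right the members spread from 1.92 (Cxcl9) to 7.73 (Cxcl10).

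The few listed markers of B cells, and of the T and NK cells that these ligands attract, were lower in Cal than in Model. The part of these cells in the chemokine levels was not tested. Of 13 T cell markers, 1 was listed, Lck, a kinase of the T cell receptor, at 36.7, 154 and 84.3 in Model and at 1.85, 4.69 and 6.83 in Cal (log2 -3.98, SE 0.59, limma adjusted p = 0.00102). Of 11 NK and cytotoxic markers, 5 were listed and all 5 were called lower in Cal, as were 31.6% of all 4288 listed genes. The 5 markers had summed levels of 99.4 to 142 in Model and 8.30 to 16.9 in Cal. Among them, Gzmb, a granzyme, was at 48.6, 46.3 and 66.1 in Model and at 1.85, 3.75 and 5.12 in Cal (log2 -3.63, SE 0.38, adjusted p = 0.00031). Klrk1, an activating receptor of NK cells, had 58 reads in Model and 1 read in Cal. The calls of Gzma, Il2rb and Tbx21 rested on few reads (39, 66 and 19 in Model, 6, 23 and 1 in Cal). All of these calls were lost with a pseudocount of 10. The 1 listed B cell marker of 5, Pax5, summed to 17.3 to 57.3 in Model and 2.82 to 11.1 in Cal. No T cell, NK or B cell marker was listed for Cal and Con, so these cells are not analysed there.

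Cells that can make the ligands gave a mixed picture. Of 10 macrophage and monocyte markers, 8 were listed, with 4 called lower and 2 higher in Cal, and summed levels of 3439 to 4492 in Model and 6428 to 6711 in Cal. Lyz2, which was called higher, was the largest part of these sums, with means of 3930 in Cal and 1674 in Model. Cd14 and Cd68, not called here, were called higher in Cal under median-ratio scaling (log2 1.16 and 1.11). Cd14 was also called higher after quantile normalization (log2 1.34) and without Model 3 or Cal 1. The Fc receptor gene Fcgr1, itself interferon-inducible, was lower in Cal (log2 -2.99), while Csf1r, the receptor of the macrophage growth factor, was higher (log2 1.56). All 5 listed neutrophil markers of 6 were called lower in Cal, with sums of 803 to 962 in Model and 71.0 to 227 in Cal, and Mpo had 0 reads in Cal. Of 7 dendritic cell markers, 3 were listed, with 2 called higher and 1 lower in Cal. Endothelial markers ran against the chemokines, with 3 of 5 listed called higher in Cal and sums of 9135 to 11050 in Cal and 3760 to 5110 in Model. For Cal and Con, the 2 listed neutrophil markers were called higher in Cal, with sums of 48.5 to 183 against 13.1 to 28.5 in Con. There, 1 of 5 listed endothelial markers, Kdr, was called lower, though not without Cal 2 (log2 -0.92). Of 3 listed macrophage and monocyte markers, Cd14 was called higher in Cal (log2 3.44) and Ccr2 lower (log2 -2.11). Of 3 listed dendritic cell markers, Cd83 was called higher (log2 3.07) and Clec9a lower (log2 -1.63).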

How the data were processed

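Both tables from cardiac RNA-seq of 9 rats were used. According to the Methods of the study, reads were aligned to rat reference sequences, counted per gene and tested with DESeq2. The submitters' processing notes name Bowtie 0.12.2 and the mouse builds mm8 and mm9, and which was used for these tables is not given in the sources used here. The sample columns hold the deposited signal, which is the authors' normalized count, a gene's reads divided by 1 size factor per library, set separately for each table. Whole reads (within 0.001 of a read) were recovered for 100% of the values. The authors' fold changes, p-values and adjusted p-values, deposited beside them, were not used. Deposited gene lengths are in bases.

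Libraries were grouped by the headings of their sample columns, and each table was tested alone. limma 3.58.1 (R 4.3.3, trended prior variance) was run on log2(normalized count + 1), with Benjamini-Hochberg adjustment over all listed genes of a table. The pseudocount of 1 understates differences of low genes. Replicates were separate rats. The Con libraries were bridged through the Cal libraries (factor 0.892 to 0.897). The members and lists were chosen with earlier results of these data known. Named genes were the 4 chemokines, their receptors, decoys and processing enzyme, interferon and NF-kB inputs, other listed chemokine ligands, the 5 genes most like each member and listed cell type markers. Some genes covered by this rule are not reported here. On the recovered reads, edgeR 4.0.16 and DESeq2 1.42.0 called 2593 and 2596 genes for Cal and Model and 716 and 717 for Cal and Con. Further alternatives were a pseudocount of 0.1 or 10, a minimum mean of 10, median-ratio scaling, quantile normalization, calls without a fold limit, a block for the replicate number and fits without 1 library at a time. Scripts were tested on simulated data. Promoters came from RefSeq (GRCr8) by symbol, with 3 of 4 members matched, and 4991 of 5760 listed symbols had a rat gene of the same symbol.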

Additional observations from a re-analysis of the deposited data

How the results depend on the processing

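No log2 difference of a member changed sign under any alternative run. The counts of called genes, 2575 for Cal and Model and 712 for Cal and Con, became 4272 and 2454 with no limit on the log2 difference. Leaving out each library gave 2344 to 2704 and 679 to 775. With the replicate number as a block, the counts were 2574 and 713. Same-numbered libraries did not deviate together (r = 0.11, -0.119 and -0.0814 for Cal and Model, and -0.0235, -0.116 and -0.14 for Cal and Con). For Cal and Model, r of differently numbered libraries ranged from -0.197 to 0.253. With 3 libraries per group, such values cannot decide whether the numbers pair the rats. For Cxcl11, the log2 difference of Cal minus Con of 4.37 was 6.80 with a pseudocount of 0.1, 1.90 with 10, 6.59 by edgeR and 6.94 by DESeq2, since Con held 1 read. For Ccl5 it was 2.65 with a pseudocount of 10, against 3.44. NK and cytotoxic calls numbered 2 with a pseudocount of 10, against 5. Endothelial calls for Cal and Model numbered 5 after quantile normalization, against 3, and were 0 to 1 for Cal and Con over the left-out libraries. The 1 cardiomyocyte call for Cal and Model, Nppa, was 0 after quantile normalization and median-ratio scaling, and 0 to 1 over the left-out libraries. The Cal and Model calls of Ifnar2, Irf9 and Tnfrsf1b were lost under both scalings, as were those of Nfkb1 and Ccl9 for Cal and Con. The call of Dpp4 was lost with a pseudocount of 10 and after quantile normalization, and that of Cxcl14 under median-ratio scaling. The call of Ccl19 was lost with a pseudocount of 10 and after quantile normalization, and that of Ifnb1 for Cal and Con after quantile normalization (adjusted p = 0.0599). For Cal and Con, the uncalled log2 differences of the muscle genes Actn2 (0.26) and Ryr2 (0.31) turned to -0.07 and -0.03 after quantile normalization, and that of Actn2 to -0.03 under median-ratio scaling, and no other list gene turned. Total depth is unknown, and low Con values rest on few reads.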
